A study of Mus musculus with 2 samples.

Results

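Matrix metalloproteinases (MMPs), ADAMTS proteases and the tissue inhibitors of metalloproteinases (TIMPs) were examined in collecting duct cells of the adult mouse kidney after deletion of the transcription factor gene Gata2. Members were all non-control probes whose gene name in the scanner files was Mmp, Adamts or Timp followed by a digit. These were 42 genes on 65 probes, out of 30198 genes on 41174 probes, and comprised 38 proteases (21 MMPs and 17 ADAMTS) and 4 inhibitors. The tested cells came from mice of the genotype Gata2flox/-::Pax8-rtTA::Tet-Cre (CKO), which carry 1 floxed and 1 null Gata2 allele, with the doxycycline-dependent activator expressed from the tubule promoter Pax8. The cells set against them came from wild-type (WT) mice, whose label lists no transgene. All mice were 8 weeks old and the samples were of mixed sex. Doxycycline, given over 4 weeks to mice aged 4 weeks at its start, induced the deletion, and the labels do not say whether WT mice received it. Purification used magnetic beads and DBA, a lectin with affinity for the collecting duct. There was 1 array for CKO and 1 for WT, although the design counts 3 mice of each genotype, and the sample names speak of mixtures without stating outright that RNA was pooled. Since 1 allele is null throughout the CKO animal, loss in the tubule and loss of that allele in other cells cannot be told apart. No difference below therefore has a replicate check, and no test between genotypes was possible.

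MMPs are zinc proteases that cut collagens, other matrix proteins and cell surface proteins, and most are made as inactive precursors that another protease must open. ADAMTS proteases are secreted zinc enzymes with thrombospondin repeats, and individual members trim proteoglycans, procollagens or von Willebrand factor. TIMPs bind to the active site of MMPs, and TIMP3, which is held in the matrix, also blocks several ADAM and ADAMTS enzymes. In the kidney these enzymes take part in branching of the ureteric tree, in turnover of the basement membrane and in scarring after injury.

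Signals are given as the scanner software's processed signal, after its detrending of the array, in arbitrary linear units. The 75th percentile was 250.03 on the CKO array and 314.3 on the WT array, and each array was divided by its own percentile before differences were taken. Each difference is the log2 value in CKO less that in WT, given with the spot error that the software gives, combined over both arrays. This error covers the spots only, not mice, purification or labelling. Signals of different probes cannot be compared with each other. Levels are therefore set only against the same probe, or the same list of probes, on the other array. The lowest signal that the software called well above background was 11.6 on the CKO array and 12.04 on the WT array. A gene was counted as measured when 1 of its probes was well above background on at least 1 array. Gata2 itself had 2424 on the CKO array and 3943 on the WT array at 1 probe, a difference of −0.37 ± 0.20, and −0.32 ± 0.20 at the other, and whether these probes lie in the deleted part was not analysed here. All 14 markers of collecting duct cells were well above background on both arrays, with a median difference of −0.04. As a guide to technical spread, the differences of separate probes for the same gene had an SD of 0.27 (root mean square, 5309 genes), and those of repeated spots a median SD of 0.21 for the dimmest and 0.026 for the brightest probes.

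Detection was counted first, for proteases and inhibitors. On the CKO array 17 of 38 protease genes were well above background, where 59.9% of all genes were, and on the WT array also 17, where 61.5% of all genes were. On at least 1 array, 18 protease genes (47.4%) and 3 of 4 TIMP genes were measured, beside 62.8% of all genes. Of the MMPs, 7 of 21 were measured (33.3%), and of the ADAMTS genes, 11 of 17 (64.7%). The 20 proteases that were well above background on neither array included both gelatinases, Mmp2 and Mmp9, the collagenases Mmp1a and Mmp8, the stromelysins Mmp3 and Mmp10 and macrophage elastase, Mmp12. They also included the membrane-type genes Mmp15, Mmp16, Mmp24 and Mmp25, the genes Mmp19, Mmp20 and Mmp21, and the ADAMTS genes Adamts7, Adamts8, Adamts13, Adamts18, Adamts19 and Adamts20. Their signals ran from 2.33 to 11.97 on the CKO array and from 2.44 to 12.5 on the WT array, so no fold is given for them. Timp4 was also below this limit, at 7.79 on the CKO array and 10.6 on the WT array.

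**Figure D1:**
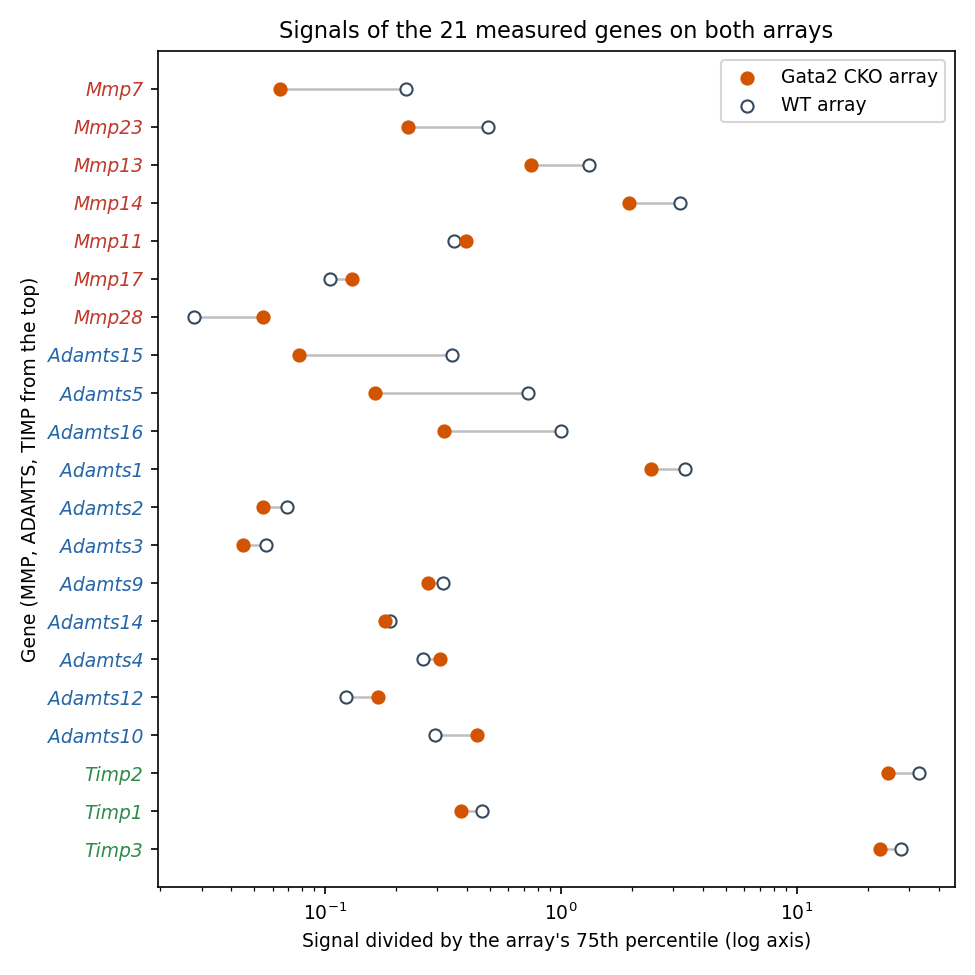
Signal of each measured gene on the CKO array (filled) and the WT array (open), divided by the 75th percentile of its array, on a log axis. Genes are grouped as MMP, ADAMTS and TIMP and ordered by difference, points are single arrays, and distances between different genes carry no meaning; Adamts15, Adamts5, Mmp7 and Adamts16 show the widest gaps, with the CKO array lower.

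Of the 18 measured proteases, 12 were lower in CKO cells and 6 were higher, and among all 18974 measured genes 42.0% were lower and 57.1% higher. Adamts3 counts as lower and Mmp28 as higher through the only array on which each passed. Among the 16 proteases measured on both arrays, 11 were lower. A size of 2-fold or more was reached by 5 of the 18 (27.8%) on the lower side and by 0 on the higher side, where all genes gave 2.84% on the lower and 1.49% on the higher side. The proteases at least 2-fold lower were Adamts15, Adamts5, Mmp7, Adamts16 and Mmp23. The median difference over the measured proteases was −0.31, and that over all measured genes was 0.04. These counts leave out the 20 proteases below background. Fewer cells of a type and less RNA per cell cannot be told apart in RNA from purified cells. On the 16 proteases measured on both arrays, 9 were lower by more than the spot error, 4 were higher by more than it and 3 lay within it. Over all genes measured on both arrays, 15.3% were lower and 25.1% higher by more than the spot error.

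**Figure D2:**
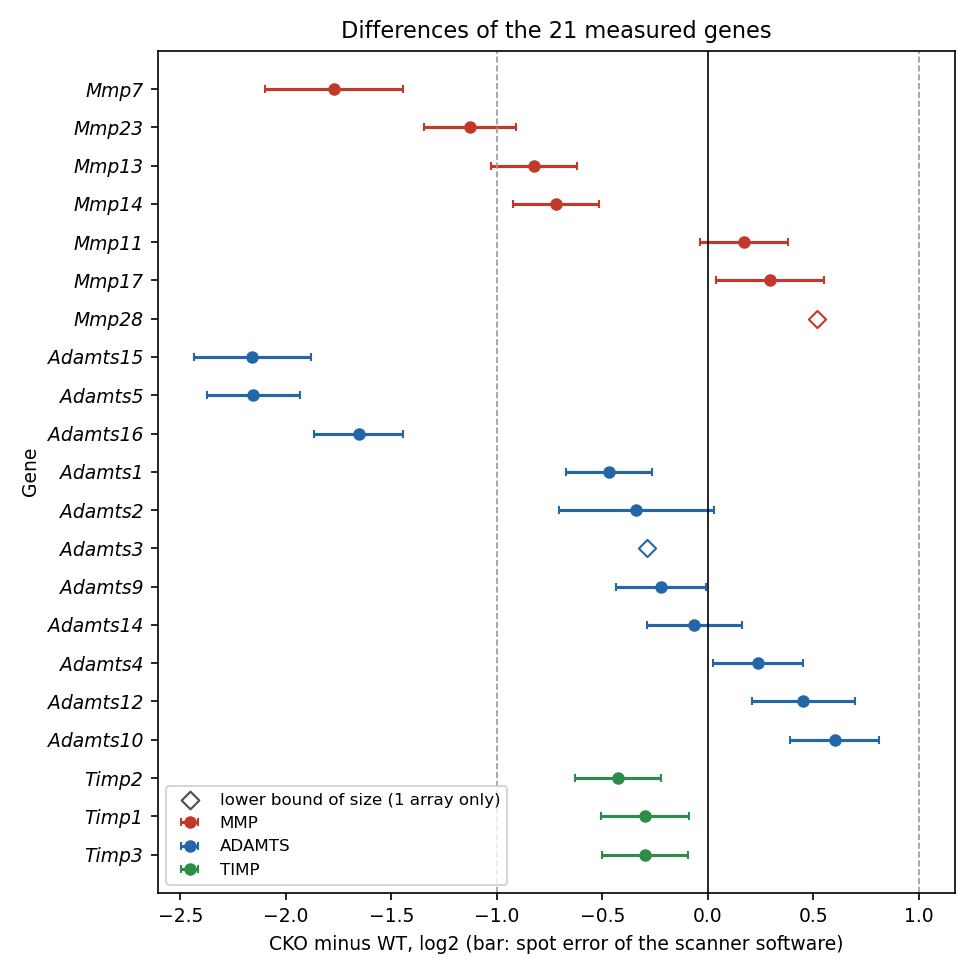
Difference (CKO minus WT, log2) of each measured gene, with the spot error as a bar. Dashed lines mark 2-fold and open diamonds mark genes measured on 1 array only, whose difference is a bound; 5 proteases lie left of the lower dashed line, and the 3 TIMPs lie between −0.43 and −0.30.

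The differences that follow are those of the probes below, and the first 30 bases of each 60-base probe are printed 5′ to 3′ so that the measured transcript can be identified. Positions are those of the whole probe in mm9, as the files give them, with the strand of the transcript. The first 5 lines are the proteases at least 2-fold lower and the last 3 the measured inhibitors.
Adamts15, chr9:30707033-30707092, minus strand: gagtatcttcattgggttatggaccagtaa
Adamts5, chr16:85862677-85862736, minus strand: gagtcgaattatgggcagaatctgctctct
Adamts16, chr13:70867148-70867207, minus strand: gatgggggctatgatatagggctttgcata
Mmp7, chr9:7697641-7697700, plus strand: agtcactcttctgttcccggtactgtgatg
Mmp23, chr4:155025377-155025436, minus strand: gtgtgcatcctgggcacgaaagggattttg
Timp1, chrX:20451675-20451733, plus strand: tctgaggactaccagagccgtcactttgct
Timp2, chr11:118163146-118163205, minus strand: ccgtgagcgttcttgtgccgtgttgatgcc
Timp3, chr10:85811696-85811755, plus strand: atagtgacttttggggatagatctgtctgg

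Among the ADAMTS genes that act on proteoglycans, Adamts15 and Adamts5 were at least 2-fold lower in CKO cells, Adamts15 not with normexp, where it was at −0.91. Adamts15, whose product cuts versican and aggrecan, had a signal of 19.4 on the CKO array and 108.8 on the WT array. Its difference was −2.16 ± 0.28 (spot error), which left 22.4% of the level in WT cells, and 117 of the 18974 measured genes were at least as low. Adamts5, the main aggrecanase of mouse cartilage, had 40.8 on the CKO array and 228 on the WT array, a difference of −2.15 ± 0.22. Adamts15 was measured by its only probe. The other probe of Adamts5 was well above background on neither array, at 3.09 on the CKO array and 10.9 on the WT array, so its difference too rests on 1 probe.

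The remaining proteoglycan-cleaving members differed less, and 1 of them was higher. Adamts1, a versican-cleaving protease that can be induced by inflammation, had 607 on the CKO array and 1054 on the WT array, a difference of −0.47 ± 0.20, and its second probe gave −0.81. Adamts9, another versican-cleaving enzyme, had 68.3 on the CKO array and 100.1 on the WT array, a difference of −0.22 ± 0.21 that barely exceeded the spot error. With normexp Adamts9 was at −0.06. Adamts4, a second aggrecanase, had 77.3 on the CKO array and 82.3 on the WT array and was higher after scaling, at 0.24 ± 0.22, but lower with spike-in scaling, at −0.31. Thus 4 of the 5 measured members of this group were lower, where 42.0% of all measured genes were. Versican itself, Vcan, had 22.6 on the CKO array and 13.4 on the WT array, a difference of 1.08 ± 0.38 near the background limit. It alone was at least 2-fold higher among the 13 measured substrates listed further below, of which 10 were lower and 3 higher. These are RNA values, and a link to the proteases was not tested.

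The procollagen N-proteinases, which remove the amino-terminal extension of fibrillar procollagens, were dim. Adamts2 had 13.7 on the CKO array and 21.7 on the WT array, a difference of −0.34 ± 0.37, within the spot error. Adamts3 had 11.3 on the CKO array, below the background limit, and 17.8 on the WT array, above it, which gave a bound of 1.22-fold lower in CKO cells. On the log2 scale this bound was −0.29 ± 0.47, within the spot error. Adamts14 had 45.1 on the CKO array and 59.3 on the WT array, a difference of −0.06 ± 0.23. All 3 genes thus lay within the spot error, and with normexp Adamts2 and Adamts14 were above 0, at 0.05 and 0.10, and the bound of Adamts3 was 0.

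Among the other ADAMTS genes 1 was lower and 2 were higher. Adamts16, a gene linked to blood pressure in rats, had 79.9 on the CKO array and 316 on the WT array, a difference of −1.66 ± 0.21, or 31.7% of the WT level. Its second probe had 7.50 on the CKO array, below the limit, and 18.2 on the WT array. It gave a bound of −0.33 ± 0.54, within the spot error. Adamts10, which binds fibrillin microfibrils, was higher in CKO cells, with 110.8 on the CKO array and 91.8 on the WT array. Its difference was 0.60 ± 0.21, or 0.05 with spike-in scaling, and its second probe gave 0.54. Adamts12, which can cut cartilage oligomeric matrix protein, had 42.1 on the CKO array and 38.7 on the WT array, a difference of 0.45 ± 0.24, or −0.09 with spike-in scaling. That value comes from a probe placed on an mRNA clone, and its 2 RefSeq probes were well above background on neither array.

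Among the secreted MMPs matrilysin and the single collagenase measured were lower in CKO cells. Mmp7, matrilysin, is made by epithelial cells, cuts cell surface proteins such as E-cadherin and is known to appear in injured tubules. It had 16.1 on the CKO array and 69.2 on the WT array, a difference of −1.77 ± 0.33, or 29.3% of the WT level, by its only probe. Mmp13, collagenase 3, which cuts fibrillar collagen in mice, had 186 on the CKO array and 415 on the WT array, a difference of −0.82 ± 0.21. With normexp the order of these genes turned, with Mmp7 at −0.53, no longer 2-fold lower, and Mmp13 at −0.66. Mmp11, stromelysin 3, had 99.0 on the CKO array and 110.4 on the WT array and lay within its error at 0.17 ± 0.21.

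Membrane-bound MMPs differed in both directions. Mmp14, whose product opens the precursor of gelatinase A at the cell surface in a complex with TIMP2, had 487 on the CKO array and 1007 on the WT array. Its difference was −0.72 ± 0.20, and a second probe, at 38.2 on the CKO array and 70.7 on the WT array, gave −0.56. The partner of that complex, Timp2, was lower as well, by less. The substrate gene Mmp2 was well above background on neither array, at 2.43 on the CKO array and 7.25 on the WT array. Mmp23, which encodes a membrane-anchored MMP that lacks the usual haemopexin domain, had 56.4 on the CKO array and 155 on the WT array, a difference of −1.13 ± 0.22. Mmp17, a lipid-anchored MMP, had 32.4 on the CKO array and 33.2 on the WT array, which after scaling was a difference of 0.30 ± 0.26, or −0.25 with spike-in scaling. The secreted Mmp28, epilysin, passed the background limit in CKO cells alone. Both of its probes gave 13.7 on the CKO array, against 8.77 and 2.64 on the WT array. The bound was 1.43-fold higher in CKO cells. It was the same for both probes because the lowest passing WT signal replaced both WT values. On the log2 scale this bound was 0.52, within the spot error of 0.53 at the first probe and 1.47 at the second.

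The 3 measured inhibitors were all lower, also under each of the 10 alternatives, and none was 2-fold apart. All alternatives reuse the same 2 arrays, and with normexp Timp1 was at −0.13, less than its spot error of 0.21. Among all measured genes 42.0% were lower. Timp2 had 6121 on the CKO array and 10342 on the WT array, a difference of −0.43 ± 0.20, or 74.4% of the WT level. Timp3 had 5668 on the CKO array and 8747 on the WT array, a difference of −0.30 ± 0.20. Timp1, which is induced in many injured tissues, had 94.2 on the CKO array and 146 on the WT array, a difference of −0.30 ± 0.21, and its other probe was below the background limit on both arrays. Their median was −0.30, and the proteases' median was −0.31. The difference between these medians was −0.015, while the spread of the proteases ran from −2.16 to 0.60. A comparison of the medians depended on the processing, as normexp gave −0.032 for the proteases and −0.36 for the TIMPs. Normexp, another background correction, was run with 50 units added to every signal, which draws differences of dim probes towards 0. The part of this offset was not separated from that of the correction.

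**Figure D3:**
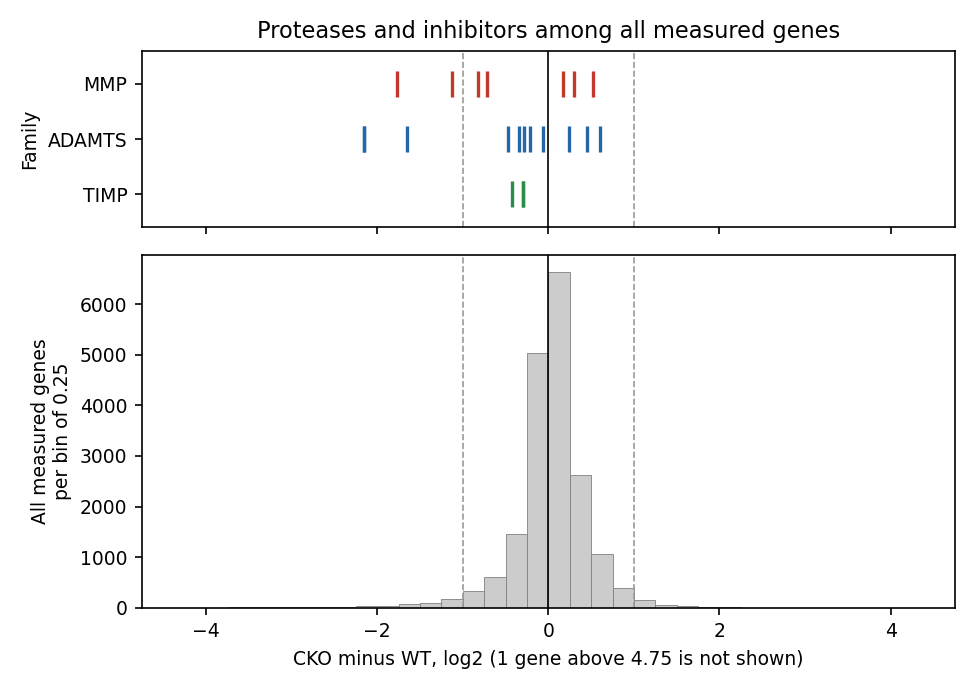
Differences (CKO minus WT, log2) of the measured members as ticks, 1 row per family, above a histogram of all measured genes in bins of 0.25. Dashed lines mark 2-fold; the ticks of proteases spread from −2.16 to 0.60, whereas the 3 TIMP ticks lie left of 0 and inside the lower dashed line.

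The counts depended on the processing. With normexp and its offset of 50 units, 2 proteases remained at least 2-fold lower, Adamts5 at −1.21 and Adamts16 at −1.14. Adamts15 was then at −0.91, Mmp23 at −0.61 and Mmp7 at −0.53. With the mean over the probes of a gene, Adamts16 was at −0.99. When 8 spike-in control transcripts were set equal on both arrays, the median of all genes moved to −0.50 and 8 proteases were at least 2-fold lower. In that scaling Adamts4, Adamts12, Mmp11 and Mmp17 changed sign, to −0.31, −0.09, −0.37 and −0.25, though each remained above the median of all genes, and the bound of Mmp28 came to 0. Adamts10 was above 0 under every alternative that was run, but only at 0.05 with spike-in scaling, less than its spot error of 0.21. With normexp it was at 0.37. Over all measured genes a size of 2-fold or more was reached by 282 on the higher and 538 on the lower side. This split was 206 and 642 after cyclic loess, 65 and 204 with normexp and 58 and 1648 with spike-in scaling.

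**Figure D4:**
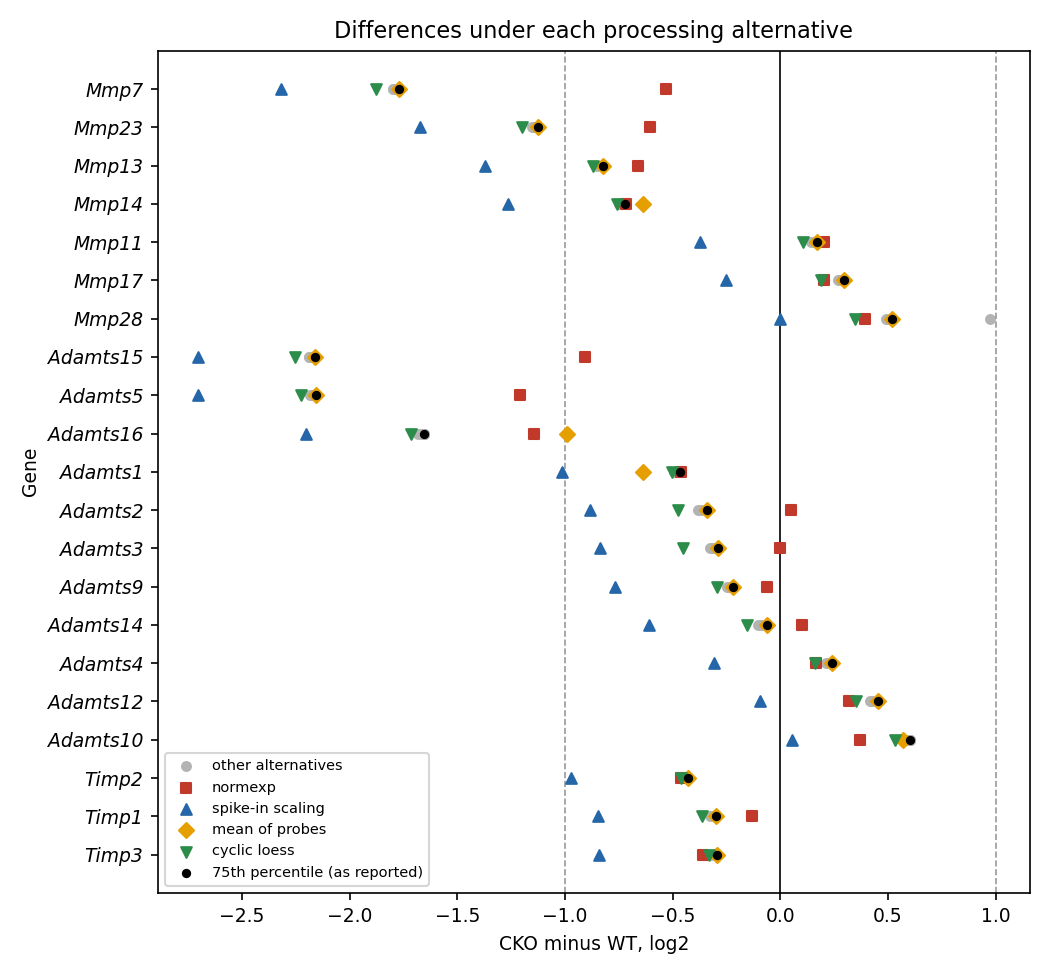
Difference (CKO minus WT, log2) of each measured gene under the reported scaling (black) and each alternative (coloured or grey). Dashed lines mark 2-fold. Spike-in scaling shifts every gene to lower values. Normexp, with 50 units added to every signal, moves the dim proteases Mmp7, Adamts15, Adamts5 and Mmp23 towards 0.

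Several members lie side by side in the genome. The 8 MMP genes Mmp13, Mmp12, Mmp3, Mmp1a, Mmp10, Mmp8, Mmp20 and Mmp7 form a cluster whose probes span chr9:7282762-7697700 in mm9, or 415 kb. Only the genes nearest to its ends in this set, Mmp13 and Mmp7, were measured, and both were lower in CKO cells. Adamts1 and Adamts5, whose probes lie 67.6 kb apart on chromosome 16, were both lower as well, at −0.47 and −2.15. Adamts15 and Adamts8, 63.1 kb apart on chromosome 9, differed in detection, since Adamts8 was well above background on neither array.

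MMP promoters are known for a binding site of the transcription factor AP-1 close to the start of the gene, and GATA factors bind short sites with a GATA core. Both were therefore searched in the 250 bases before each annotated start, taken from RefSeq on GRCm38.p6, which held 32 promoters of 29 member genes. Promoters of the other members, among them Adamts15, Adamts5 and Adamts16, were not available there, so these genes were not searched. The AP-1 letters were TGAGTCA and TGACTCA, each the reverse complement of the other. The GATA letters were AGATAA and TGATAA with their reverse complements TTATCT and TTATCA, and no AP-1 and GATA match overlapped in the members. AP-1 letters were found upstream of 6 of the 29 genes, all of them in the cluster on chromosome 9. These were 6 of the 32 member promoters, beside 4.46% of all 32851 promoters. Mmp8 and Mmp20 of the same cluster were searched too and held no AP-1 letters. GATA letters were found upstream of 2 of the 29 genes, Mmp7 and Mmp24. These were 2 of the 32 member promoters, beside 16.6% of all promoters. The upstream stretches of the 2 measured genes of the cluster are printed in full, and 47 bases around the AP-1 letters of the other 4 show the shared letters in genes that were not well above background. Capitals mark the searched letters, and all lie on the plus strand.
Mmp7, chr9:7691840-7692089: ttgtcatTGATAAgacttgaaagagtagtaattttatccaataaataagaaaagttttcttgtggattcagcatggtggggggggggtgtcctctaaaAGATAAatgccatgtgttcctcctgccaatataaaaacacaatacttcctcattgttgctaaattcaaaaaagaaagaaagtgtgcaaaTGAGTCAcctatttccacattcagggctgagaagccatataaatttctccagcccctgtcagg
Mmp13, chr9:7272264-7272513: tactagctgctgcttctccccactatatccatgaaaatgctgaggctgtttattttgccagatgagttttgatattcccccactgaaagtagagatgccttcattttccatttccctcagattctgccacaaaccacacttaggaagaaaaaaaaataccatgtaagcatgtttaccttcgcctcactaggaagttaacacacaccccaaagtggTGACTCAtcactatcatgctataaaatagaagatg
Mmp3, chr9:7445756-7445802: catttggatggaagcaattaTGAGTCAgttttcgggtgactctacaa
Mmp10, chr9:7502259-7502305: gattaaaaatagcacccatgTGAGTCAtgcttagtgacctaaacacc
Mmp1a, chr9:7464048-7464094: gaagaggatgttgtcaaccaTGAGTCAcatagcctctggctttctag
Mmp12, chr9:7347310-7347356: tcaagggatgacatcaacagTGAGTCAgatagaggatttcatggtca

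The AP-1 letters began between 73 and 35 bases before the start, at −63 in Mmp7 and Mmp10, −73 in Mmp1a, −46 in Mmp3, −44 in Mmp12 and −35 in Mmp13. The GATA letters of Mmp7 began at −243 and −152. A match describes these letters only, and whether a factor binds there was not tested. Of the 6 genes with AP-1 letters, 2 were measured and 4 were not. Mmp12 and Mmp7 each have a second annotated start, and no AP-1 letters stood in the 250 bases before it.

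**Figure D5:**
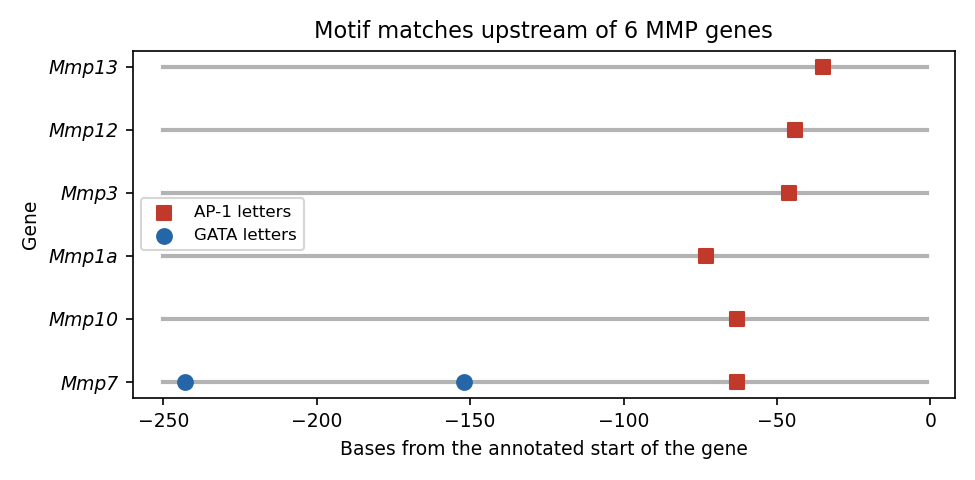
Positions of AP-1 letters (squares) and GATA letters (circles) in the 250 bases upstream of the annotated start of the 6 MMP genes that hold AP-1 letters, in bases from the start. The AP-1 letters lie between −73 and −35 in every gene shown, and GATA letters appear in Mmp7, at −243 and −152.

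Other genes of pericellular proteolysis were followed from gene lists that were chosen with earlier results of these data known. Beside their counts, 62.8% of all genes were measured. Of all measured genes 42.0% were lower, 57.1% were higher and 2.84% were at least 2-fold lower. Of 15 ADAM and astacin proteases on the array, which shed cell surface proteins or cut matrix precursors, 10 were measured, 6 lower and 4 higher, with a median of −0.03. Of these 2 were at least 2-fold lower, Mep1a, a meprin subunit of proximal tubule brush border, at −1.28 ± 0.21 and Adam33 at −1.07 ± 0.23. Other probes of Adam33 gave −0.52 and a bound of −0.26. For Adam19 the probe that passed on WT alone gave a bound of 1.98-fold lower, while others gave 0.23 and a bound of −0.10, and Adam8 was at −0.36. Among other regulators of metalloproteinases 10 of 15 were measured, 4 lower and 6 higher, with a median of 0.14. The inhibitor-like gene Adamtsl5 was at 1.06 ± 0.31 and alpha-2-macroglobulin, A2m, a broad protease trap, at 0.76 ± 0.36, both with signals near the background limit. The convertase Pcsk5 was at −0.71 ± 0.21 and Adamtsl4 at −0.70 ± 0.37. Of 16 substrates of these enzymes 13 were measured, 10 lower and 3 higher, with a median of −0.57. Among them Eln passed on the WT array alone and could not come out higher, and Vwf and Col1a1 also stand in the marker lists below. Besides Vcan, von Willebrand factor, Vwf, was at −1.77 ± 0.32, the basement membrane collagen Col4a2 at −0.92 ± 0.20 and the fibrillar collagen Col1a1 at −0.90 ± 0.29.

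Most markers of other kidney cells were lower beside these genes, and over all measured genes 42.0% were lower. A marker that passed the background limit on the WT array alone could only come out lower or at 0. Among such markers were Lum, Rgs5, Thy1, Pecam1, Cdh5 and Cldn1. The counts and medians that follow thus include directions set by the filter. Of 14 markers of fibroblasts, pericytes and smooth muscle 13 were measured, 11 were lower and 1 was higher, with a median of −0.67, among them Vim at −1.53, Pdgfrb at −1.47, Fbln5 at −1.13 and Col1a1. Their summed signal over the 75th percentile was 27.4 in CKO cells and 35.2 in WT cells, and Lum, Pdgfra, Rgs5 and Thy1 were not well above background on the CKO array. Such sums are weighted to the brightest probes, and sums of different lists cannot be compared with each other. All 13 macrophage and dendritic cell markers on the array were measured and lower, with a median of −0.77 and sums of 88.1 in CKO cells and 161 in WT cells. Among them were Itgam at −1.47 (a bound of −0.74 at another probe), Lyz2 at −1.25, Mrc1 at −0.92 and Csf1r at −0.90 (−1.03 and −0.44 at others). All 9 measured of 10 endothelial markers were lower, with a median of −0.35 and sums of 1.14 in CKO cells and 1.97 in WT cells. Vwf, counted here too, was at −1.77 and Ptprb at −1.48. Cdh5 was lower by at least 1.70-fold and Eng was at −0.36, while Pecam1, Cdh5 and Tie1 were not well above background on the CKO array. All 6 podocyte and parietal markers were lower, with a median of −1.22 and sums of 1.11 in CKO cells and 2.27 in WT cells, and those furthest from 0 were Cldn1, lower by at least 5.95-fold (a bound of −1.64 at another probe), the podocyte factor Wt1 at −1.70, nephrin, Nphs1, at −1.23 and Podxl at −1.21 (0.22 at another probe). Of the 10 proximal tubule markers 8 were lower, with a median of −0.24 and sums of 12.1 in CKO cells and 14.6 in WT cells, among them Lrp2 at −1.58 (−1.20, a bound of −0.41 and −0.26 at other probes), Slc5a12 at −0.93 and Cubn at −0.89, while Aqp1 was at 0.72. The collecting duct markers gave sums of 707 in CKO cells and 746 in WT cells, with 7 lower and 7 higher, and those furthest from 0 were Atp6v1b1 at 1.94, Slc4a1 at 0.91, Slc26a4 at 0.79 and Aqp4 at 0.62. The part of these cell types in the differences of proteases and inhibitors was not tested.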

How the data were processed

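RNA from purified collecting duct cells, 50 ng per array, was labelled with Cy3 and hybridised to 2 arrays. The deposited files give each spot's intensity, linear, as Agilent Feature Extraction 10.7.3.1 wrote it, with spatial and multiplicative detrending switched on, per the file headers. The same deposited files supply the flags for background, outliers and saturation and the mm9 positions of probes. How the authors scaled one array to the other is not given in these sources. Slide and scan were shared by both arrays.

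Spots with an outlier flag were left out (73 on the CKO array, 66 on the WT array), and 0 were saturated. Values were log2 processed signal less the array's 75th percentile, averaged over the spots of a probe. Each gene was represented by its brightest probe that passed the background flag on either array. If it passed on 1 array alone, the difference is a bound, computed with the dim side raised to that array's lowest passing signal where needed. The direction of a bound is set by the array that passed. Counts and medians include such bounds. Symbols were checked through RefSeq accessions (26875 probes matched, GRCm38.p6).

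No test was possible with 1 array per genotype, so genes were counted at 2-fold, and precision is limited by how few arrays there are. The members and gene lists were chosen with earlier results of these data known. All measured members are named, with up to 4 genes of every other list, those furthest from 0. The calculations were tested on simulated data. Results were recomputed under 10 alternatives covering background correction, normalization, spike-in scaling, the filter on dim probes, the choice of probe and the spot flags. Software was R 4.3.3, limma 3.58.1 (normexp with offset 50, quantile, cyclic loess), Python 3.11.15, pandas 2.3.3 and numpy 2.4.6.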

Additional observations from a re-analysis of the deposited data

How the results depend on the processing

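Signal over background and the use of 1 array per genotype limit these results. No paired analysis was possible because each genotype has 1 array. The 5 proteases at least 2-fold lower became 2 with normexp, which was run with 50 units added to every signal. There the median of proteases was −0.032, and that median minus the median of TIMPs was 0.33. All genes then gave 204 lower and 65 higher. With spike-in scaling the 5 proteases became 8, with medians of −0.86 for proteases, −0.85 for TIMPs and −0.50 for all genes. Of all genes, 1648 were then lower and 58 higher. With no filter on dim probes, 38 proteases and 30198 genes entered, 8 proteases were at least 2-fold lower, their median was 0.20, the difference from the TIMP median was 0.50, and all genes gave 1241 lower and 1215 higher; the signals added there are not well above background. The remaining alternatives kept 4 or 5 proteases 2-fold lower, and none of the 10 gave a protease at least 2-fold higher. Adamts2 and Adamts14 were above 0 with normexp, at 0.05 and 0.10, and the bound of Adamts3 came to 0.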

Other observations

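The plasmin system, which opens several MMP precursors, had 7 of 8 genes measured, 4 lower and 3 higher, with a median of −0.01 and none 2-fold apart. Beside this, 62.8% of all genes were measured, and of those 42.0% were lower and 57.1% higher. Urokinase, Plau, was at 0.49 ± 0.20, with 0.49 at its other probe, and its receptor Plaur at 0.33 ± 0.21, with 0.06 at another probe. Tissue plasminogen activator, Plat, was at −0.28, with −0.52 at another probe, and Serpinf2, antiplasmin, at −0.17. Plasminogen itself, Plg, was well above background on neither array, and Serpine2 on the WT array only, so Serpine2 could not come out higher.

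Cysteine cathepsins and their cystatin inhibitors, a second protease system with its own inhibitors, had 8 of 9 genes measured. Of these 7 were lower and 1 was higher, with a median of −0.28 and none 2-fold apart. Over all measured genes 42.0% were lower and 57.1% higher. Ctss, cathepsin S, which is abundant in macrophages, was lowest at −0.76 ± 0.20. The inhibitors Cst6 and Cst3 were at −0.35 and −0.31, and the protease Ctsz at −0.29. Ctsk, an osteoclast collagenase, was not well above background on either array. Of 7 neutrophil markers on the array 2 were measured, beside 62.8% of all genes. S100a9 passed on the WT array alone, with a bound of 2.87-fold lower, and Mpo was at 0.20 ± 0.25.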
